A study of Mus musculus with 3 samples.

Results

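Gzmk-positive CD8 T cells were followed in single-cell RNA sequencing of mouse peripheral blood mononuclear cells (PBMCs). A barcode was a member when it held at least 1 UMI (unique molecular identifier, 1 counted mRNA molecule) of the CD3 genes Cd3d, Cd3e and Cd3g, at least 1 of Cd8a or Cd8b1, none of Cd4, at most 1 of Cd79a and Cd79b, and at least 1 of Gzmk. Barcodes also needed at least 200 genes, at most 7.5% mitochondrial UMIs and less than 20% hemoglobin UMIs. In all, 301 of 44212 barcodes were members, of 28333 that passed the quality limits and 4576 that passed the CD8 gate, meaning every condition but Gzmk. The members numbered 16 in the young, 122 in the aged and 163 in the aged-GA library. The members were thus chosen by their measured UMIs of the CD3, CD8, Cd4, Cd79 and Gzmk genes, so those levels are description only.

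The study compared blood immune cells of young mice, of aged mice and of aged mice given glycyrrhizic acid (GA), the main saponin of licorice root. All mice were female and of the C57BL/6 strain. The young group was 8 weeks old, the aged group 16 months old, and the aged-GA group 16 months old after 1 month of treatment with 5 mg/kg GA, injected into the tail vein every 2 days for 30 days. The labels give no treatment for young and aged mice, while the methods describe saline injected into the tail vein of control mice. Each group was described with 5 mice but was sequenced as 1 library, so no difference between groups has a replicate check and none was tested. Intervals below are exact 95% intervals, or Katz intervals for ratios of shares, and cover counting error only. UMIs summed over the young, aged and aged-GA members came to 127025, 555662 and 943462, with medians of 7334, 3964 and 4728 UMIs per cell. The young members thus had the fewest UMIs in all: 1 UMI there equalled 7.87 CPM (a gene's UMIs scaled in the usual way to the total UMIs of a group's cells). For a gene with no UMI there, the exact interval reached 29 CPM. The floor used for such a gene below is 23.6 CPM, the level of 3 UMIs.

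Granzyme K is a serine protease stored in the secretory granules of some cytotoxic lymphocytes, next to the better known granzymes A and B and the pore-forming protein perforin. CD8 T cells with Gzmk are known as a memory-type state, usually rich in the chemokine Ccl5 and the transcription factor Eomes, and they are known to accumulate with age. Cytotoxic effector cells are known instead for granzyme B, perforin, Klrg1, Cx3cr1 and Zeb2, and naive CD8 cells for Ccr7, Lef1, Tcf7 and Il7r. T-box factors (Eomes and T-bet) and RUNX factors are known regulators of cytotoxic genes.

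The 250 bases before the starts of Gzmk, Gzma and Gzmb are shown because the rule rests on the first and because Gzma and Gzmb were the genes farthest above the other Ccl5-positive CD8 cells. They come from RefSeq on GRCm38.p6 and are written 5′ to 3′ on each gene's own strand, which is the minus strand in all 3 cases. Capitals mark the T-box core letters GTGTGA and the RUNX core letters TGTGGT, on either strand. Both motifs hold the letters TGTG, but no base of these windows was counted for both.
Gzmk (chr13:113180966-113181215): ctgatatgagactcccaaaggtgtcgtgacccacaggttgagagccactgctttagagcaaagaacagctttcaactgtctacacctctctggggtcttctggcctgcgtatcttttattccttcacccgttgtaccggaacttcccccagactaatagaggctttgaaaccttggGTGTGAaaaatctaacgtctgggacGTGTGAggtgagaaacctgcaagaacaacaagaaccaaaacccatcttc
Gzma (chr13:113100982-113101231): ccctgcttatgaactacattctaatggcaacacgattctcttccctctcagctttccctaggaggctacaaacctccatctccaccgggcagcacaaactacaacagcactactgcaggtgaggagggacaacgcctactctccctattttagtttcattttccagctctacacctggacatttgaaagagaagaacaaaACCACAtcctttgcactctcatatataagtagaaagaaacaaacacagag
Gzmb (chr14:56262335-56262584): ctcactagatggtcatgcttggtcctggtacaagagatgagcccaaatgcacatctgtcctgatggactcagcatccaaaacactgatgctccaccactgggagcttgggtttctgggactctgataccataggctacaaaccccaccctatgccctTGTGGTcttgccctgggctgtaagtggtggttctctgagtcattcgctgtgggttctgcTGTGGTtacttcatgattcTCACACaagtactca
The Gzmk window held 2 T-box cores, which began 74 and 49 bases before the start, and no RUNX core. The Gzma window held 1 RUNX core, on the opposite strand at 50 bases, and the Gzmb window held 1 T-box core on the opposite strand at 15 bases and 2 RUNX cores at 93 and 34 bases. Among all 27025 genes with such a window, 13.9% held a T-box core and 15.9% a RUNX core. Gzmk (chr13:113171608-113225908) and Gzma (chr13:113093825-113100981) are neighbours, 70.6 kb apart in the GENCODE annotation of the same build, whereas Gzmb (chr14:56258838-56262260) lies on another chromosome. The RefSeq start of Gzmk falls inside the longer GENCODE span.

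The rule asked for a CD8 UMI, so the CD8 counts describe the members and do not check their label. Cd8b1 was found in 16 of 16, 112 of 122 and 151 of 163 members, and Cd8a in 14, 98 and 134, in the order young, aged and aged-GA. Both CD8 genes were found together in 14, 88 and 122 members, and Cd8a without Cd8b1 in 0, 10 and 12. Ccl5, a T cell chemokine that the rule did not ask for, was found in 16, 122 and 159 members. Of the 6 natural killer (NK) cell markers, 6, 5 and 5 were found. They summed to 433, 540 and 270 CPM, against 157, 387 and 205 CPM in the Ccl5-positive CD8 cells without Gzmk, and were led in members by Fcer1g in young and aged and by Tyrobp in aged-GA. Klra4 alone was at 0 in the aged and aged-GA members. The 4 CD4 and regulatory T cell markers summed to 142, 148 and 105 CPM, against 34.3, 28.7 and 29.4 CPM in those cells, led by Ctla4, with Foxp3 at 0 in the members of all 3 libraries. The 5 gamma-delta T cell markers summed to 47.2, 73.8 and 68.9 CPM, led by Tcrg-C2, and the 4 NKT and MAIT markers to 7.87, 14.4 and 6.36 CPM, led by Klrb1c.

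Many members held a single Gzmk UMI. Exactly 1 Gzmk UMI was counted in 9 of 16 young (56.2%), 57 of the 122 aged (46.7%) and 76 of the 163 aged-GA members (46.6%), and the highest counts in 1 cell were 4, 13 and 8. Members just inside the threshold still differed in Gzma from CD8 cells just outside it. Gzma, the neighbouring granzyme gene, was at 2282, 2218 and 1306 CPM in members with 1 Gzmk UMI and at 5032, 3025 and 1302 CPM in members with 2 or more. It was at 335, 391 and 121 CPM in the CD8 cells with Ccl5 and no Gzmk. The young value of 5032 CPM rested largely on 1 cell, so no rise of Gzma with Gzmk was read from it. Without that cell, young members together were at 2091 CPM, against 335 CPM. Not every gene differed in this way in young. There Lef1 was at 314 CPM (199 to 472) in members with 1 Gzmk UMI against 396 CPM (375 to 419). Tox was at 68.3 CPM (22.2 to 159) against 38.6 CPM (32.1 to 45.9).

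RNA of other lineages was present in the members and differed between the libraries. Neutrophil markers (S100a8, S100a9, Retnlg, Mmp9) summed to 0, 1582 and 3184 CPM in young, aged and aged-GA members, led by S100a9. All 4 were at 0 in young. Monocyte markers summed to 299, 1924 and 935 CPM and were led by Lyz2 in both aged libraries, and B cell markers to 102, 430 and 489 CPM, led by Igkc. Red cell markers, led by Hbb-bs, summed to 724, 6083 and 4249 CPM. Platelet markers summed to 0, 9 and 44.5 CPM, and basophil markers were at 0. The Ccl5-positive CD8 cells without Gzmk carried them as well, at 298, 738 and 1713 CPM for neutrophil and 157, 1074 and 572 CPM for monocyte markers. Barcodes with 2 or more UMIs of 13 such genes numbered 0, 12 and 19 among the members. Their part in the results was not tested, and the comparisons between libraries below say which named genes lost their 2-fold difference without them. Libraries shared 52 (young and aged), 50 (young and aged-GA) and 62 (aged and aged-GA) barcodes, but no barcode was a member in more than 1 library.

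Gzmk-positive cells made up 0.798% (interval 0.457 to 1.29) of the CD8 gate in the young library, 13.9% (11.6 to 16.3) in the aged and 9.64% (8.28 to 11.2) in the aged-GA library. The aged share was 17.4 times the young one, a log2 ratio of 4.12 (Katz interval 3.38 to 4.86). The aged-GA share was 0.696 times the aged one, a log2 ratio of -0.52 (-0.84 to -0.21), and 12.1 times the young one. Deeper cells show more UMIs of a rare gene, so every cell was also thinned to 2000 UMIs. Of the 3 gates, 2001, 870 and 1685 cells were deep enough. The shares were then 0.25% (0.0812 to 0.582), 8.97% (7.15 to 11.1) and 6.41% (5.29 to 7.69), in the same order as before. The thinned young share rested on 5 cells.

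The order of the 2 aged libraries depended on the denominator. Of all T cells, members made up 0.3%, 5.22% and 4.56%, with a log2 ratio of aged-GA over aged of -0.20 (-0.53 to 0.13), and the CD8 gate itself held 37.7%, 37.7% and 47.3% of T cells. Of all barcodes that passed the quality limits, members made up 0.192%, 1.34% and 1.5%, and the log2 ratio of aged-GA over aged was 0.17 (-0.17 to 0.51). Among CD8 gate cells with 10 or more Ccl5 UMIs, which leaves out most naive cells, members made up 8.08% (4.69 to 12.8), 24.4% (20.7 to 28.5) and 15.9% (13.7 to 18.4). The share was thus lowest in young and higher in aged than in aged-GA within the CD8 gate and its Ccl5-rich cells, while the intervals of the aged-GA over aged ratio included 0 for the other 2 denominators.

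**Figure D1:**
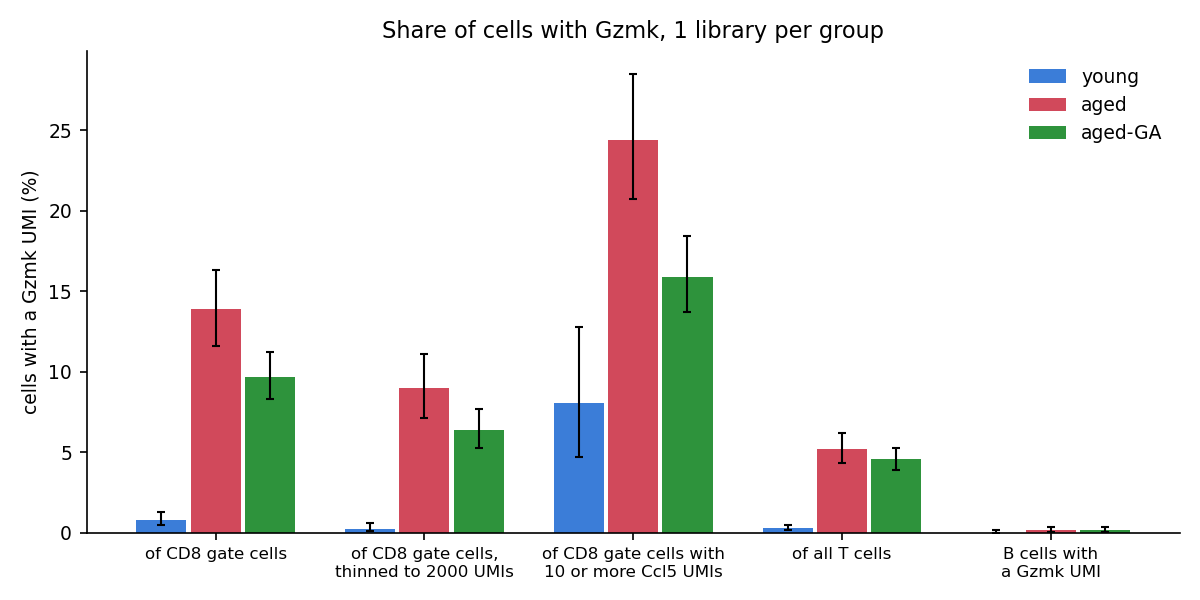
Bars give the share of cells with a Gzmk UMI (%, y axis) in 1 library each of young, aged and aged-GA mice, for 4 denominators and for B cells, with exact 95% intervals of counting error. The aged bar is the highest in each T cell denominator (13.9%, 8.97%, 24.4% and 5.22%), and B cells lie at or below 0.178%.

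Free RNA in the droplets could put a Gzmk UMI in a cell that does not express it. B cells (2 or more Cd79 UMIs and no CD3 or CD8 UMI), which should lack Gzmk, held it in 0 of 2147 cells of the young library, 7 of 3937 of the aged and 8 of 4771 of the aged-GA library. These are 0%, with an upper interval limit of 0.172%, then 0.178% and 0.168%. At that rate the CD8 gates would hold 0, 1.56 and 2.83 cells with Gzmk, against the 16, 122 and 163 found. Asking for no CD3 or CD8 UMI also leaves out B cell barcodes that carry T cell RNA. All barcodes with 2 or more Cd79 UMIs held Gzmk in 0.113%, 0.815% and 0.932%, at which rate the gates would hold 2.27, 7.17 and 15.8 such cells. At the upper interval limits of those rates they would hold 6.64, 9.87 and 20.3, the first against only 16 young members. The B cells were less deep, with medians of 3384, 3090 and 3748 UMIs against 5889, 5671 and 7204 in the CD8 gate; thinned to 2000 UMIs, their shares were 0%, 0.105% and 0.127%. The CD8 gate held 53.7%, 45.8% and 51.7% of the Gzmk UMIs in those barcodes of its library that passed the quality limits. T cells with Cd4 and no CD8 UMI held Gzmk in 0.584%, 5.28% and 5.74% of cells, and barcodes with NK genes and no CD3 in 0.683%, 0.82% and 2.12%.

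Within each library, members were set against the CD8 cells of the same gate with Ccl5 and no Gzmk, of which there were 440, 489 and 1127. Genes were counted with at least 20 UMIs over both groups and 50 CPM in either, and a gene was taken as different at 2-fold or more on log2(CPM + 10) in all 3 libraries. By this rule 44 of 2203 genes (2%) were higher in members and 10 (0.454%) lower, while the median log2 ratio of all 2203 was 0.38, 0.22 and 0.25. Centred on the median of the genes counted in each library (0.43, 0.27 and 0.27), 15 genes were higher, all among the 44, and 25 lower. Among others, Nkg7, Cxcr3, Eomes, Bhlhe40, Rora, S100a6, S100a11, Stmn1, Hmgb2, Ifi27l2a and Bcl2a1b were then no longer past 2-fold upward, and Il7r, Bcl2, Satb1 and Actn1 passed downward. Among the 10 lower genes, 3 were on the naive T cell list (Ccr7, Dapl1 and Nsg2). Members were shallower in both aged libraries, with medians of 3964 and 4728 UMIs against 6094 and 7719. At 2000 UMIs they nevertheless had more genes per cell, with medians of 940, 1006 and 983 against 755, 899 and 858.

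Granzymes led the higher genes. Gzma, a tryptase of cytotoxic granules, was at 3448, 2676 and 1304 CPM in members against 335, 391 and 121 CPM in the Ccl5-positive cells, log2 ratios of 3.32, 2.74 and 3.33. In young, 44.1% of the members' Gzma UMIs came from 1 cell; without it Gzma was at 2091 CPM there, a log2 ratio of 2.60. Gzmb, the main apoptosis-inducing granzyme, was at 220, 373 and 250 CPM against 41.3, 75.2 and 31.2 CPM. Of 10 counted cytotoxic genes, 4 were higher and none lower, the others being Nkg7 (a granule membrane protein, log2 ratios 1.55, 1.14 and 1.28) and Ifng (interferon gamma, 63, 115 and 72.1 CPM against 10.1, 21.2 and 17.7 CPM). Perforin (Prf1) stood at 142, 173 and 112 CPM against 47.4, 71.5 and 66.4 CPM, short of 2-fold in aged-GA alone. Gzmm, another granzyme, was close to even, at log2 ratios of 0.51, -0.08 and -0.14.

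Homing receptors also differed. Itga4, the alpha4 integrin that binds VCAM-1 on activated endothelium, was at 409, 768 and 672 CPM in members against 141, 197 and 111 CPM. It was found in most members, in 87.5%, 95.1% and 91.4% of members, and after thinning to 2000 UMIs in 62.5%, 76.5% and 73.6%, against 22.3%, 29.2% and 18.4% of the comparison cells. Cx3cr1, the fractalkine receptor of effector cells, was at 142, 144 and 73.1 CPM against 8.57, 34 and 8.68 CPM. The inflammatory receptors Cxcr3 (log2 ratios 1.52, 1.06 and 1.18) and Ccr2 (1.66, 1.36 and 1.45) were higher too. Ccr7, which guides naive and central memory cells into lymph nodes, was lower at 94.5, 25.2 and 77.4 CPM against 409, 348 and 395 CPM. In all, 4 of 16 counted chemokine receptor and homing genes were higher and 1 was lower.

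Among transcription factors, 4 of 17 were higher and none lower. Eomes, the T-box factor of memory CD8 cells, was at 86.6, 212 and 196 CPM in members against 33.4, 91.7 and 77.6 CPM. Zeb2, a repressor known in terminal effector cells, was at 78.7, 254 and 179 CPM against 11, 82.3 and 32.5 CPM. Bhlhe40 and Rora were the other 2. Tox, known for sustaining chronically stimulated T cells, was at 162 and 159 CPM against 36.4 and 31.2 CPM in aged and aged-GA, log2 ratios of 1.89 and 2.04. In young it was at 70.9 CPM, from 9 UMIs, against 38.6 CPM, which was under 2-fold.

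Of 14 counted genes of the memory surface, S100 and cytoskeleton list, 7 were higher and none lower. They were S100a4, S100a6, S100a10, S100a11, Lgals1, Lgals3 and Anxa2. S100a4 was at 897, 792 and 529 CPM in members against 82.6, 240 and 95.4 CPM, and Lgals1, galectin-1, at 1307, 1650 and 1238 CPM against 267, 497 and 338 CPM. Of 12 counted naive T cell genes, 3 were lower (Ccr7, Dapl1 and Nsg2) and none higher. Il7r, the survival receptor for interleukin-7, was at log2 ratios of -0.85, -1.45 and -0.82, and the survival gene Bcl2 at -1.06, -1.20 and -0.86, both past 2-fold in all 3 libraries only once centred. The proliferation-linked genes Stmn1 and Hmgb2 were both higher, as the only 2 counted of the cell cycle list.

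Of the inhibitory receptors, few had enough UMIs to be counted. Ctla4, which competes with Cd28 for B7 ligands, was the 1 of 4 counted checkpoint and costimulatory genes that passed, at 142, 146 and 102 CPM against 31.2, 28 and 25.9 CPM. Pdcd1, encoding PD-1, was at 7.87, 16.2 and 7.42 CPM in members (1, 9 and 7 UMIs) against 0.918, 4.05 and 0.451 CPM. Lag3 was at 23.6, 25.2 and 12.7 CPM (3, 14 and 12 UMIs) against 0.918, 3.03 and 1.47 CPM. Havcr2, encoding TIM-3, had 2, 8 and 4 UMIs. These 3 genes lay under the minimum of 50 CPM and were not counted. In thinned cells of the aged and aged-GA libraries, Lag3 was found in 6.72% and 3.07% of members against 1.04% and 0.623%, and Pdcd1 in 3.36% and 1.84% against 1.04% and 0.089%; neither was found in the 16 thinned young members. No gene passed of 5 killer lectin-like receptors, 16 T cell receptor signaling genes, 11 immediate early and stress genes and 2 CDK inhibitors, and none of the chemokine ligands, of which 1 was counted. Klrg1 was not among the 5 counted, because aged-GA members lay under the minimum of 50 CPM. It was at 110, 91.8 and 46.6 CPM in members against 7.65, 11.5 and 3.83 CPM, and in thinned cells was found in 25%, 13.4% and 10.4% against 1.37%, 3.31% and 0.98%. A single gene each passed upward of 6 interferon-stimulated (Ifi27l2a) and 5 BCL2 family genes (Bcl2a1b).

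**Figure D2:**
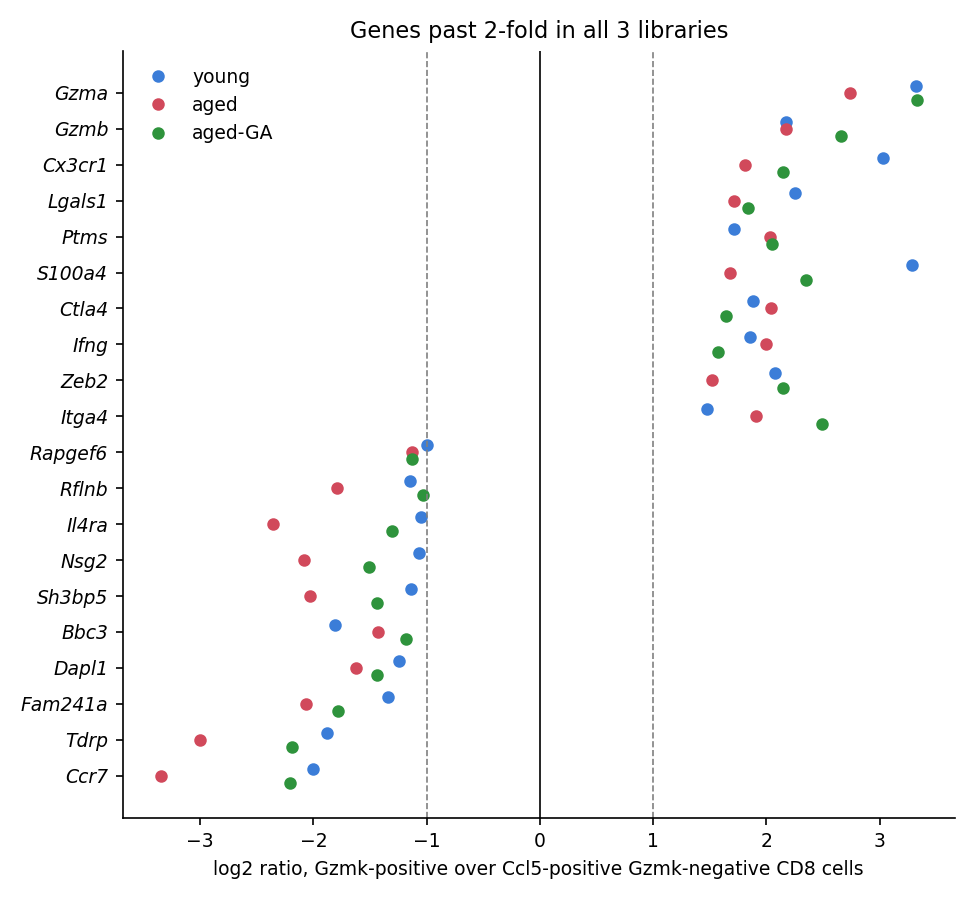
Each point is the log2 ratio (x axis, on CPM + 10) of Gzmk-positive over Ccl5-positive Gzmk-negative CD8 cells in 1 library, for the 10 genes that lay farthest past 2-fold in each direction in all 3 libraries. Dashed lines mark 2-fold; the points of Gzma lie at 3.32, 2.74 and 3.33 and those of Ccr7 at -2.00, -3.35 and -2.21.

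A single Ccl5 UMI is a weak criterion in these libraries, since 5.12%, 18.8% and 31.1% of B cells held one. With 10 or more Ccl5 UMIs asked of the Gzmk-negative cells, a level reached by 0.652%, 0.61% and 0.566% of B cells, 182, 371 and 834 cells remained. This comparison was chosen after seeing the data. Of 2210 counted genes, 26 were then higher in members, all of them among the 44, and 4 were lower (Ccr7, Bbc3, Nsg2 and Neurl3). Gzma was at 761, 523 and 156 CPM in these Ccl5-high cells, and the members' log2 ratios over them were 2.17, 2.33 and 2.99. Itga4 was at 153, 185 and 88.2 CPM there, against 409, 768 and 672 CPM in members. Eomes, Nkg7, Cxcr3 and S100a6 no longer passed in all 3 libraries; Eomes was at 58.6, 114 and 96.1 CPM in the Ccl5-high cells, with log2 ratios of 0.49, 0.85 and 0.96.

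**Figure D3:**
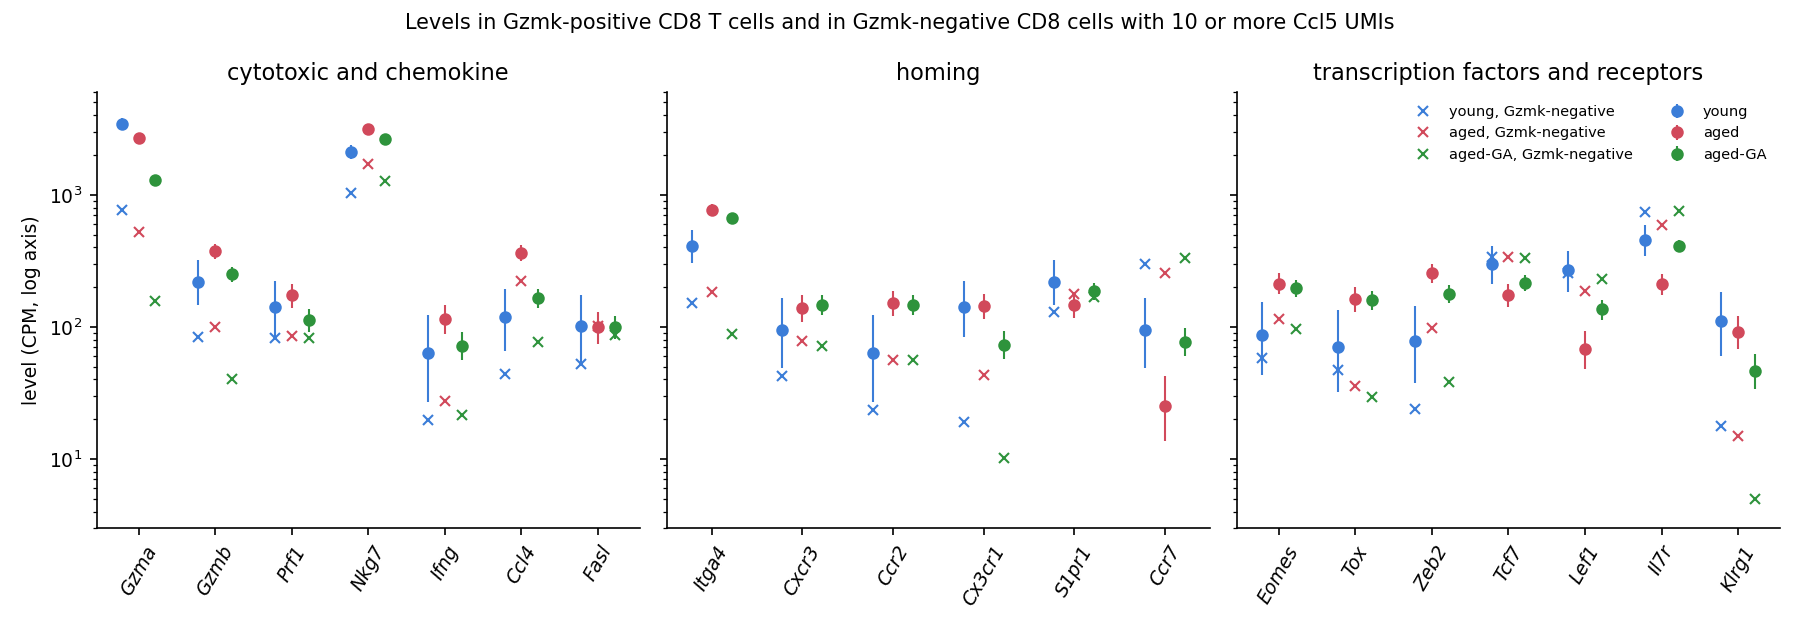
Levels of 20 genes (CPM on a log axis) in Gzmk-positive CD8 T cells (circles, with exact 95% intervals of counting error) and in Gzmk-negative CD8 cells with 10 or more Ccl5 UMIs (crosses), coloured by library. In all 3 libraries the circles of Gzma, Gzmb, Itga4 and Cx3cr1 lie above their crosses and those of Ccr7 below; points under 3 CPM would lie off the axis.

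Naive-like CD8 cells (no Gzmk, no Ccl5, and a UMI of Ccr7 or another naive T cell gene) numbered 1494, 259 and 392. Against them 119 of 2218 genes (5.37%) were 2-fold or more higher in members in all 3 libraries and 20 (0.902%) lower, around medians of 0.36, 0.31 and 0.30. Centred on the median of the genes counted in each library (0.44, 0.37 and 0.33), 65 genes were higher and 49 lower. Ccl5 and the naive T cell genes that defined the naive-like cells were left out. Gzma was again the top gene, at log2 ratios of 7.99, 6.53 and 6.65. The memory, S100 and cytoskeleton list had 12 of 14 counted genes higher, including Cd44, the hyaluronan receptor of memory cells (110, 93.6 and 118 CPM against 12.1, 24.2 and 30.9 CPM), and Il2rb, a chain shared by the interleukin-2 receptor. Homing genes were higher for 9 of 13 and cytotoxic genes for 5 of 8, Fasl, the death ligand, among them. Of the remaining naive genes, 4 of 10 were lower (Lef1, Satb1, Dapl1 and Actn1), a description only, since the comparison cells were chosen for naive transcripts.

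The promoter letters shown above were also counted over the gene sets. Of the 44 genes higher than in Ccl5-positive cells, 35 had a RefSeq window, and 9 of these (25.7%) held a T-box core and 12 (34.3%) a RUNX core. Of the 2203 genes counted, 1774 had a window, of which 11.6% held a T-box and 13% a RUNX core. A match is a run of letters and was not tested for binding.

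The members were not uniform, and Gzma divided them. No Gzma UMI was found in 6 of the 16 young, 69 of the 122 aged and 104 of the 163 aged-GA members, while 5 or more were found in 8 (50%), 39 (32%) and 40 (24.5%). Only 2, 14 and 19 members lay between. B cells reached 5 Gzma UMIs in 0.652%, 0.61% and 0.587% of cells. Gzma-high and Gzma-negative members were compared in the aged and aged-GA libraries, a split chosen after seeing the values; the young cells were too few. Median depth was close, at 4288 against 3905 UMIs in aged and 4663 against 4711 in aged-GA. Of 2768 counted genes, 23 (0.831%) were 2-fold or more higher in Gzma-high members in both libraries and 25 (0.903%) lower.

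Of 10 counted cytotoxic genes, Gzmb alone was higher in Gzma-high members, and none was lower. It was at 786 CPM against 147 CPM in aged and at 718 against 82.6 CPM in aged-GA. Of 6 counted killer lectin-like receptors, 4 were higher and none lower: Klrg1, a receptor of short-lived effector cells (216 against 30 CPM and 106 against 27.5 CPM), Klre1, Klrc1 and Klrc2. Zeb2 (491 against 127 CPM and 330 against 86.3 CPM), Cx3cr1 (the 1 of 15 homing genes), Lgals1 and the chemokine Ccl4 were also higher. Of 4 counted cell cycle genes, Stmn1, Top2a and Pclaf were higher, and so was the replication clamp gene Pcna. Pclaf had no UMI in Gzma-negative members of either library. Pclaf and Klrg1 thus reached the minimum of 50 CPM in Gzma-high members only, and the counts of their lists are description only. Pclaf came from few cells, though, with 5 positive members in each aged library and 75.5% and 44.2% of its UMIs in 1 of them.

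Of 19 counted transcription factors, 3 were higher in Gzma-negative members (Tcf7, Tox and Maf) and 1, Zeb2, was lower. Of 6 naive T cell genes 2 were higher (Il7r and Tcf7), and of 6 checkpoint and costimulatory genes 1 (Ctla4). So were 3 of 10 immediate early and stress genes, 1 of 2 counted monocyte markers and the 1 counted NK marker. Tcf7, the factor known to maintain memory and stem-like T cells, was at 257 CPM against 47.5 CPM in Gzma-high members of the aged library and at 279 against 106 CPM in aged-GA. Tox (240 against 63.3 CPM and 228 against 28.5 CPM), Il7r (310 against 73.9 CPM and 556 against 175 CPM), Ctla4 and Slamf6 were higher there as well. Neutrophil genes S100a8, S100a9 and Retnlg, the only 3 counted of that marker list, were on the same side. Without the cells that held UMIs of other lineages, 21 of the 23 genes higher in Gzma-high members were still past 2-fold, but only 11 of the 25 lower ones: Ctla4, Emb, Fosb, Gm26532, Ier3, Ier5, Il7r, Maf, Slamf6, Tcf7 and Tox. Nkg7 (log2 ratios 0.19 and 0.27), Ccl5 (0.32 and 0.11) and Itga4 (-0.23 and -0.34) were near even between the 2 kinds of member. Eomes was at 237 CPM in Gzma-negative against 195 CPM in Gzma-high members of the aged library and at 244 against 114 CPM in aged-GA.

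**Figure D4:**
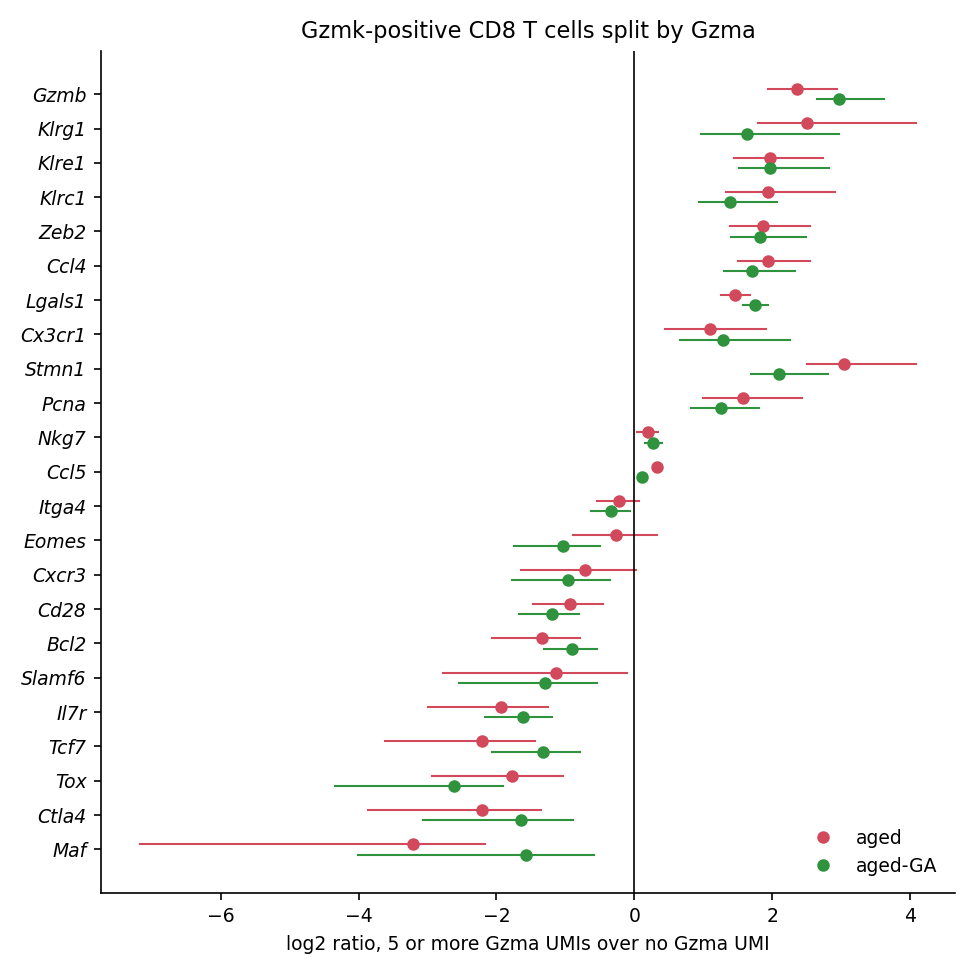
Log2 ratios (x axis) of members with 5 or more Gzma UMIs over members with none, in the aged and aged-GA libraries; points are on CPM + 10 and lines are exact 95% counting intervals of the plain ratio, so a point need not sit at the middle of its line. Gzmb (2.35 and 2.97) and Klrg1 (2.50 and 1.63) lie at the right, Tox (-1.77 and -2.62), Ctla4 (-2.21 and -1.64) and Maf (-3.21 and -1.57) at the left.

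Aged members were next compared with the 16 young ones, to ask how the cells differed with age. Of 3130 counted genes, 359 (11.5%) were 2-fold or more higher in aged and 65 (2.08%) lower, with a median log2 ratio of 0.18. Centred on this median, 267 were higher and 141 lower. Among the genes named below, Tox (1.09), Cd28 (1.10), Ccr2 (1.14), Klrc2 (1.06) and Bcl2a1d (1.04) then fell short of 2-fold. The counting interval lay off 0 for 229 of the higher and 59 of the lower genes. Genes high in the aged members, which held more UMIs than the young ones, met the UMI minimum more easily. The excess of higher over lower genes is thus description only. With no CPM minimum, 557 genes were higher and 65 lower. With at least 100 UMIs asked over both groups, 39 genes were higher and 12 lower. Some differences rested on 1 cell: of 67 named genes past 2-fold, 16 fell short when the cell with most of the gene's UMIs was left out of either library, a step chosen after seeing the data that by its construction shrinks differences. The largest ratios were those of Lyz2, S100a9 and S100a8, genes of monocytes and neutrophils. They had no UMI in young members and stood at 1202, 736 and 599 CPM in aged ones, where 83.7%, 55.7% and 56.5% of the UMIs came from 1 cell. Without the cells that held UMIs of other lineages their log2 ratios were 3.65, 3.32 and 3.08.

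Several naive T cell genes were lower in aged than in young members. Of 11 counted, 7 were lower in aged and none higher, with a median log2 ratio of -1.21. Lef1 stood at 268 CPM in young members (34 UMIs) and 68.4 CPM in aged ones, Satb1, a chromatin organizer of naive T cells, at 260 and 70.2 CPM, and Igfbp4 at 142 and 3.6 CPM (18 and 2 UMIs). Ccr7, Dapl1, Il7r and Actn1 were the others. Igfbp4, Ccr7, Dapl1 and Actn1 reached the minimum of 50 CPM in young members only. They were thus counted through the group where they were high, and the 7 of 11 is description only. Without the 1 young cell richest in each, Il7r (log2 ratio -0.84) and Actn1 (-0.78) fell short of 2-fold. In the opposite direction, 6 of 22 transcription factors were higher in aged (Eomes, Tox, Zeb2, Nr4a2, Maf and Nfatc1) and 3 lower (Id2, at -0.87 without 1 young cell, Lef1 and Satb1), around a median of -0.07. Nr4a2, Maf and Nfatc1 reached 50 CPM in aged members only, so the 6 of 22 is description only as well. Maf, a factor of interleukin-10 and helper programs, had no UMI in young members and 110 CPM in aged ones, at least 4.65-fold higher at the 3-UMI floor, and was found in 27 of 122 aged members. Zeb2 was at 78.7 and 254 CPM, Eomes at 86.6 and 212 CPM and Tox at 70.9 and 162 CPM in young and aged.

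Of the cytotoxic genes, none of 11 counted passed in either direction, with a median log2 ratio of 0.42. Gzma stood at 3448 and 2676 CPM in young and aged members, and Gzmb at 220 and 373 CPM. Of the chemokine ligands, Ccl3 (no UMI and 91.8 CPM) and Ccl4 (118 and 364 CPM), both inflammatory chemokines, were higher, 2 of 3 counted. S100a6 (732 and 2259 CPM), Lgals3, Il18r1 and Il10ra were the 4 of 16 memory and S100 genes that were higher. Of 6 cell cycle genes 4 were higher (Mki67, Birc5, Top2a and Pclaf), led by Mki67 with no UMI and 93.6 CPM, found in 11 of 122 cells. For comparison, 11.5% of all counted genes were higher. All 4 cell cycle genes reached the minimum of 50 CPM in aged members only. They were thus counted through the group where they were high, and the 4 of 6 is description only. Of the remaining lists, these passed: Klrc2 and Klre1 of 6 killer lectin-like receptors, Prkcq and Nfatc2 of 18 T cell receptor signaling genes, Isg15 and Irf7 of 8 interferon-stimulated genes, Cd28 of 6 checkpoint and costimulatory genes and Bcl2a1d of 6 BCL2 family genes, all higher. Of 16 homing genes Ccr2 was higher and Ccr7 and S1pr4 lower, of 11 immediate early and stress genes Jun was lower, and neither of 2 CDK inhibitors passed. Ccl3, Il18r1, Il10ra, Nfatc2, Isg15, Irf7 and Bcl2a1d likewise reached 50 CPM in aged members only, so the counts of their lists are description only. Without the cells that held UMIs of other lineages, Lgals3 (log2 ratio 0.75), Bcl2a1d (0.91), Id2 (-0.89) and Il7r (-0.97) fell short of 2-fold, as did Cst3 of the monocyte list (0.42), and Tyrobp turned from 1.14 to -1.28. Ccl3 and Actn1 then fell under the count minimum. Without the 1 aged cell richest in the gene, Lgals3 (0.77), Klrc2 (0.97), Ccr2 (0.89), Bcl2a1d (0.89) and the cell cycle gene Pclaf (-0.28) fell short, and Jun did so without 1 young cell (-0.95).

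Aged-GA members were compared with aged members to ask how the cells differed with GA treatment. Of 3032 genes counted, 8 (0.264%) were 2-fold or more higher in aged-GA and 23 (0.759%) lower, with a median log2 ratio of -0.08, and the counting intervals of all of them lay off 0. Which genes passed depended on the choices made. Centred on the median, 12 were higher and 15 lower. As a mean over cells 6 and 14 were, of which 3 and 4 were among the 8 and 23, and with at least 2 Gzmk UMIs asked of members 38 and 47 were, of which 5 and 12 were. Of 24 named genes past 2-fold, 18 fell short when the cell richest in the gene was left out of either library; Bhlhe40, Ccr7, Cxcl2, Exosc1, Mki67 and Prc1 did not. Lower in aged-GA were Gzma, Ccl4, Bhlhe40, Maf, Isg15 and genes of cell division. Higher were Ccr7, Rgs10 and Exosc1, together with myeloid genes that came from few cells. These values rest on 122 and 163 cells, more than the 16 young ones.

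Gzma stood at 2676 CPM (interval 2542 to 2816) in aged members and 1304 CPM (1232 to 1379) in aged-GA ones, a log2 ratio of -1.03, and was found in 53 of 122 and 59 of 163 members. Ccl4, an inflammatory chemokine, was at 364 and 165 CPM (-1.09), Bhlhe40, a factor needed for cytokine output of T cells, at 178 and 76.3 CPM (-1.12), and Maf at 110 and 49.8 CPM. Bhlhe40 was found in 62 of 122 and 51 of 163 members. Without the 1 aged cell richest in each, Bhlhe40 was at -1.08, while Gzma (-0.94), Ccl4 (-0.84), Maf (-0.90) and Isg15 (-0.75) fell short of 2-fold. Gzma was also lower in aged-GA among the Ccl5-positive cells without Gzmk, at 121 against 391 CPM. Gzmb stood at 373 and 250 CPM (-0.56), Nkg7 at 3173 and 2658 CPM (-0.25), Eomes at 212 and 196 CPM (-0.11), Tox at 162 and 159 CPM (-0.03) and Itga4 at 768 and 672 CPM (-0.19), all within 2-fold.

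Ccr7 stood at 25.2 and 77.4 CPM in aged and aged-GA members, a log2 ratio of 1.31, and was found in 7 of 122 and 28 of 163 members. It was the 1 of 7 counted naive T cell genes that passed; the list's median was 0.76 against -0.08 over all genes, with Il7r at 211 and 412 CPM (0.94) and Lef1 at 68.4 and 136 CPM (0.89). The median of 6 killer lectin-like receptors was -0.56, with none past 2-fold; Klrg1 was at 91.8 and 46.6 CPM (-0.85) and Klrd1 at 529 and 354 CPM (-0.57). Cell cycle genes had a median of -0.61, and Mki67 (93.6 and 26.5 CPM) and Birc5 (73.8 and 23.3 CPM) passed of 6. Both reached 50 CPM in aged members only, as Ccr7 did in aged-GA members only. Mki67 and Birc5 rested on few cells, Mki67 on 11 and 10, and Birc5 on 4 and 3. Without 1 aged cell Mki67 was at -1.11 and Birc5 at -0.61.

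The myeloid genes need separate reading. S100a8 stood at 599 and 1420 CPM (1.23), but 1 aged-GA cell held 75.2% of its UMIs there, and S100a9 likewise had 72% in 1 cell. All 57 aged-GA UMIs of Ccl2, a monocyte-attracting chemokine, came from 1 cell, as did 48.6% of those of Cxcl2 and 38.4% of those of Il1b. On the lower side, 80.9% of the aged UMIs of Apoe and 71.7% of those of Cybb came from 1 cell. Without the cells that held UMIs of other lineages, S100a8 was at a log2 ratio of -0.44 and S100a9 at -0.29, the opposite direction. Then 6 genes were higher and 16 lower, of which 2 and 9 were among the 8 and 23. Ccr7 (1.30), Exosc1 (1.01), Gzma (-1.01), Bhlhe40 (-1.12) and Maf (-1.05) were still past 2-fold. Ccl4 (-0.85), Isg15 (-0.78), Hist1h2ap (-0.79) and Cst3 (-0.61) were not, and Rgs10, Ccl2, Cxcl2, Il1b, Apoe, Cybb, Napsa and Ifitm6 were not counted.

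**Figure D5:**
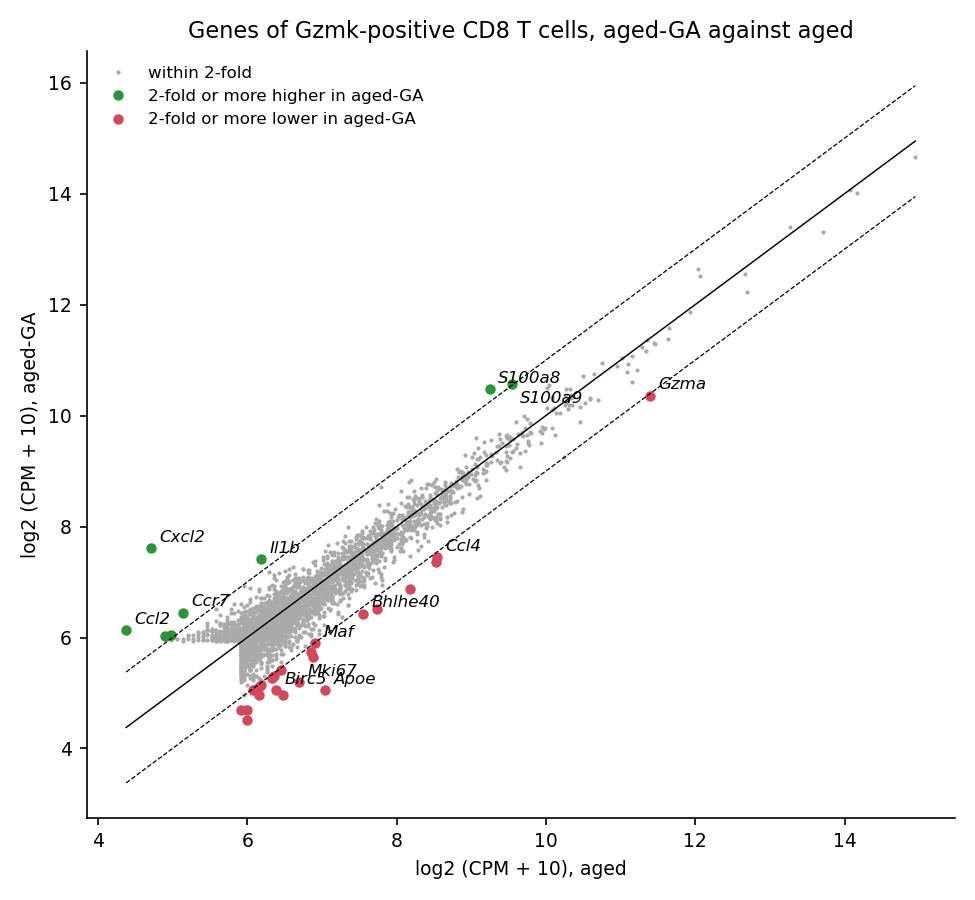
Each point is a gene counted in Gzmk-positive CD8 T cells, at log2(CPM + 10) in the aged (x axis) and aged-GA (y axis) library; dashed lines mark 2-fold. The 8 genes above and 23 below the lines include Ccr7 above and Gzma, Ccl4, Bhlhe40 and Maf below.

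Aged-GA and young members, compared without the aged library, differed in 244 of 2985 genes (8.17%) that were 2-fold or more higher in aged-GA and 86 (2.88%) lower, with intervals off 0 for 159 and 76. Here too genes high in the aged-GA members, which held more UMIs, met the minimum of 20 UMIs more easily. With no CPM minimum, 732 genes were higher and 96 lower. The 3 comparisons share libraries, so each is given by its own values. Eomes (86.6 CPM in young members and 196 CPM), Tox (70.9 and 159 CPM), Zeb2 (78.7 and 179 CPM) and Nfatc1 (15.7 and 63.6 CPM) were the 4 of 21 transcription factors that were higher, and Id3 and Satb1 the 2 that were lower. Of 11 naive genes, Satb1, Dapl1 and Igfbp4 were lower, and the median was -0.53. Dapl1, Igfbp4 and Id3 reached 50 CPM in young members only, and Nfatc1 in aged-GA members only, so the counts of their lists are description only. Lef1 (268 and 136 CPM), Il7r (457 and 412 CPM) and Ccr7 (94.5 and 77.4 CPM) lay within 2-fold. Gzma, at 3448 and 1304 CPM, was the 1 of 10 cytotoxic genes that passed, and it was lower in aged-GA (-1.40). Without the 1 young cell that held 44.1% of its UMIs, Gzma was at 2091 and 1304 CPM, a log2 ratio of -0.68. Of 52 named genes past 2-fold, 20 fell short without the richest cell of either library, Satb1 (-0.60), Dapl1 (-0.75), Id3 (0.07) and Zeb2 (0.94) among them. Without the cells that held UMIs of other lineages Zeb2 (0.94), S100a6 (0.87), Ccr2 (0.69), Klrg1 (-0.98) and Tbc1d15 (-0.94) fell short of 2-fold. Among the genes then under the count minimum were Lyz2, Retnlg, Cxcl2, Ifitm3, Il1b, Chil3, Alox5ap and Ddit4.

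Antigen receptor segments were too sparse to compare. A single T cell receptor beta variable (Trbv) segment could be assigned in 6, 13 and 21 members of the young, aged and aged-GA libraries. The most frequent segment in aged-GA, Trbv12-2, was found in 5 of the 21 (23.8%, 8.22 to 47.2), and in 19.2% of 120 assigned Ccl5-positive cells without Gzmk of the same library.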

How the data were processed

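PBMCs of 1 library per group were profiled with the 10x Genomics 3′ version 3 kit. The authors deposited, per library, UMI counts per gene and barcode, with lists of genes and barcodes (unit other); the matrix headers name Cell Ranger 5.0.0, and the submitters' processing notes name mm10. The files held 10842 (young), 16038 (aged) and 17332 (aged-GA) barcodes, of which 8354, 9136 and 10843 passed the quality limits. Mitochondrial and gene limits are those of the study's methods; its limit at 90% of the largest gene number was an alternative, and no doublet caller was run.

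Counts were summed over the cells of a group and scaled to CPM. Log2 ratios used a pseudocount of 10 CPM, and genes needed 20 UMIs over both groups and 50 CPM in either. Genes of the rule, of hemoglobin, of mitochondria and of ribosomal proteins were left out, as were antibody and antigen receptor segments. No test was run, since a group is 1 library; genes past 2-fold were counted, with exact Poisson intervals for counts, Clopper-Pearson intervals for shares and the Katz log method for ratios of shares. UMIs are counted molecules, but intervals cover counting error only. Thinning drew UMIs without replacement with seed 0. Named genes are the 10 farthest past 2-fold in each direction of a comparison, by the smallest ratio over libraries where several were used, and all counted members of 14 gene lists; 10 further lists hold markers of other cells. The Gzma split, the Ccl5-high comparison and genes named for how few cells held them were chosen after their values were seen. Some members of these lists are not reported here. Members and lists were chosen with earlier results of these data known. The counting steps were tested on simulated data. Python 3.11.15, numpy 2.4.6, scipy 1.17.1, pandas 2.3.3 and matplotlib 3.10.9 were used. Promoter windows are RefSeq's, on GRCm38.p6.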

Additional observations from a re-analysis of the deposited data

How the results depend on the processing

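With 1 library per group, a difference between groups cannot be told apart from a difference between libraries, and whether the blood of the mice was pooled is not given in the sources used here. Depth limits the young members most. No paired analysis was possible because each group is 1 library. Where a value below moved, the cause was not tested. Alternatives with 10 or more Ccl5 UMIs and those on the Gzma split or the cell richest in a gene were chosen after seeing the data.

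Shares of the CD8 gate are in the order young, aged, aged-GA. With at least 2 Gzmk UMIs they were 0.349%, 7.39% and 5.15%; thinned to 2000 UMIs 0.25%, 8.97% and 6.41%; thinned to 1000 UMIs 0.2%, 5.57% and 3.62%; of all barcodes that passed the limits 0.192%, 1.34% and 1.5%; of all T cells 0.3%, 5.22% and 4.56%. With at most 5% mitochondrial UMIs they were 1.34% in young and 11.5% in aged-GA. The log2 ratio of aged over young was 3.37 at 5% mitochondrial UMIs, 5.17 (3.87 to 6.46) thinned to 2000 UMIs and 2.80 of all barcodes. The log2 ratio of aged-GA over young was 4.68 (3.39 to 5.97) thinned to 2000 UMIs. Both thinned ratios rest on 5 young cells. That of aged-GA over aged was -0.20 of T cells and 0.17, reversed, of all barcodes.

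Counts of genes past 2-fold follow as higher and lower. Pseudocount 50 gave 81 and 15 for aged over young, 2 and 4 for aged-GA over aged, 51 and 11 for aged-GA over young, 16 and 2 against Ccl5-positive cells, 61 and 10 against naive-like cells, and 14 and 10 for the Gzma split. Pseudocount 1 gave 126 lower for aged over young, 15 and 35 for aged-GA over aged, and 132 lower for aged-GA over young. At least 100 UMIs gave 39 and 12, 4 and 8, 74 and 11 for the same 3 comparisons of groups, and 79 higher against naive-like cells. No CPM minimum gave 557 higher, 34 and 40, and 732 higher, with 19 lower against Ccl5-positive and 42 lower against naive-like cells. Centring on the median gave 141 lower for aged over young, 15 lower for aged-GA over aged, 15 and 25 against Ccl5-positive and 65 and 49 against naive-like cells. A mean over cells gave 108, 14 and 134 lower for the 3 comparisons of groups and 17 lower against Ccl5-positive cells. Members with at least 2 Gzmk UMIs gave 38 and 47 for aged-GA over aged, 542 and 164 for aged-GA over young, 17 lower against Ccl5-positive and 33 lower against naive-like cells, and an effective number of Trbv segments (inverse Simpson index) of 14 in aged, against 26 from 13 cells. At most 5% mitochondrial UMIs gave 130 lower for aged-GA over young. Comparison cells with at least 2 Ccl5 UMIs gave 6 lower, and with at least 10 gave 26 and 4. Without the young library, 19 were lower against Ccl5-positive cells, and 211 and 43 differed from naive-like cells. In the Gzma split, 1 or more Gzma UMI gave 10 lower, and leaving out cells with UMIs of other lineages 15 lower.

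Single genes were followed only in the comparisons between libraries, where they stayed counted. There the log2 ratio of Tyrobp for aged over young, 1.14, was -1.28 without cells with UMIs of other lineages and -0.03 as a mean over cells. For aged-GA over aged, S100a8 was -0.44 and S100a9 -0.29 without those cells, and Cybb was 0.52 with at least 2 Gzmk UMIs. Leaving out the 1 cell richest in the gene reversed Irf8 (1.14) and Pclaf (-0.28) for aged over young, Ccl2 (-1.06), Cybb (0.27), Ifitm6 (0.05), S100a8 (-0.73) and S100a9 (-0.77) for aged-GA over aged, and Id3 (0.07) and Irf8 (0.81) for aged-GA over young. No other change of direction was found among those values.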
